A study of Mus musculus with 24 samples.

Results

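The genes described here are 10 antioxidant enzyme genes of the mouse: the glutathione peroxidases Gpx1, Gpx3, Gpx4 and Gpx8, the superoxide dismutases Sod1, Sod2 and Sod3, catalase (Cat), and the peroxiredoxins Prdx1 and Prdx6. They are 10 of the 33000 genes in the deposited count table, and all 10 passed the filter on low counts in each comparison. They were chosen as a family of enzymes and selected on their log2 fold changes between genotypes, cDNA amounts and sets, which were already known. Those differences are therefore given as a description. Counts of the 10 that pass a threshold are set beside the share of all genes and are not a test of the 10. The libraries were made by 3'Pool-seq, which primes cDNA at the polyA tail, pools barcoded samples after reverse transcription, and sequences the 3' ends of transcripts. Frontal cortex was taken from 3 wild-type (WT) mice and 3 homozygous GFAP-IL6 mice, all of strain C57BL/6 and 3 months of age. In GFAP-IL6 mice a transgene under the Gfap promoter makes astrocytes express Il6. Each mouse gave 4 libraries, with 2 ng or 1 ng of amplified cDNA put into tagmentation (cutting and tagging by the Nextera transposase) in each of 2 sets, A and B. What separates set A from set B is not in the labels.

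Superoxide dismutases turn superoxide into hydrogen peroxide, in the cytosol (Sod1), the mitochondrial matrix (Sod2) or outside the cell (Sod3). Hydrogen peroxide is then removed by catalase in peroxisomes, by glutathione peroxidases with glutathione as the reductant, and by peroxiredoxins. Gpx4 is a selenoprotein that reduces lipid peroxides within membranes and is known as the enzyme that holds back ferroptosis. Neurons and astrocytes both depend on these enzymes, and astrocytes supply much of the glutathione of the brain. NADPH oxidase of microglia and other phagocytes is, by contrast, an enzyme that produces superoxide.

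Because this method primes cDNA at the polyA tail and amplifies 3' end fragments, the last bases of a transcript lie next to the priming site. The last 30 bases of the 4 glutathione peroxidase transcripts are shown, since Gpx4 was the gene whose counts moved with the library set and the other 3 are its closest relatives here. They were read from the GENCODE vM21 transcripts on GRCm38, and capitals mark the polyadenylation signal AATAAA where the bases hold it.
Gpx1 (chr9:108340314-108340343, + strand): tactaagAATAAAgtgctgaatatcagaat
Gpx3 (chr11:54910348-54910377, + strand): catctgcccagtaaaggtctttctgcagca
Gpx4 (chr10:80056410-80056439, + strand): tgccttgtgggAATAAAatgtagaaatgtg
Gpx8 (chr13:113042759-113042788, - strand): gtAATAAAatatacaatgaatgttgcaaaa
On the transcript's own strand, AATAAA was present in the last 30 bases of 5 of the 10 genes (Gpx1, Gpx4, Gpx8, Sod2 and Prdx1) and its variant ATTAAA in 1 (Sod1). Among 20556 other protein-coding genes, 50.9% held AATAAA in the same window and a further 11.6% held ATTAAA without it. The Gpx4 window thus held the common form of the signal, as did those of Gpx1 and Gpx8.

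Gpx4 (ENSMUSG00000075706.8) lies on chr10:80047166-80056439, + strand, and the transcript used here, Gpx4-202, has 7 exons with a last exon of 254 nt, of which 224 nt are 3' UTR. A near-identical copy, Gpx4-ps2, lies on the same chromosome at chr10:45875291-45876086 and matches 99.67% of the last 300 nt of Gpx4. Of the 431 windows of 70 nt, the read length, in the last 500 nt of Gpx4-202, 361 (83.8%) occurred unchanged in the transcript of another annotated gene. For Sod1 these were 78 of 431 windows (18.1%), shared with the pseudogene Gm8566, and for the other 8 enzyme genes 0 of 431. The authors counted uniquely aligned reads only, so reads of Gpx4 and Sod1 that match a copy equally well could have been lost from the counts. Levels of these 2 genes are uncertain to that extent, and the part of the copies in any difference described here was not tested. Gpx8 overlaps Cdc20b, and Sod1 overlaps Scaf4, on the other strand, and the sources used here do not state whether strand was used in counting.

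The 24 libraries held 1524165 to 12256374 counts each, and the 4 libraries of a mouse summed to between 7852743 and 37582644. Each mouse took a like share of the counts in all 4 sets, for instance 32.86% to 33.77% for GFAP-IL6 mouse 3 and 6.427% to 7.449% for WT mouse 3. By the methods the samples of a set may have gone through 1 tagmentation reaction as a pool, so p-values over mice measure the spread between mice and not between reactions. As a check of the labels, Gfap was at most 23.5 CPM in the WT mice and between 80.8 and 146 CPM in the GFAP-IL6 mice, and Il6 was at 0 to 0.26 CPM in WT and 1.58 to 4.22 CPM in GFAP-IL6. WT mouse 3 stood apart in choroid plexus markers, whose summed level ranged from 105.6 to 4071 CPM over the WT mice and from 78.0 to 751 CPM over the GFAP-IL6 mice. CPM are counts of a gene relative to the total of the library after TMM scaling, and values per mouse are from the sum of its 4 libraries.

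The first comparison asks whether mice with Il6 made in astrocytes differ from WT mice in these enzymes. None of the 10 genes was called (edgeR quasi-likelihood test, Benjamini-Hochberg adjusted p under 0.05), while 263 of 14621 genes tested (1.8%) were, 255 of them higher in GFAP-IL6 and 8 lower. With the added demand of an absolute log2 fold change above 1, the rule used for DEGs, 180 genes (1.23%) were called and again none of the 10. None of the 10 had an unadjusted p under 0.05 against 1279 of all genes tested, and DESeq2 also called 0 of the 10. The median log2 fold change of the 10 was 0.03 and that of all genes -0.01, and the median absolute log2 fold change was 0.08 against 0.11. By both medians the enzyme genes lay close to the genes at large in this contrast, on which they were selected.

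Of the superoxide dismutases, cytosolic Sod1 (ENSMUSG00000022982.9, chr16:90220754-90226329) was at 294, 298 and 356 CPM in the WT mice and at 274, 287 and 269 CPM in the GFAP-IL6 mice. All 3 GFAP-IL6 mice were below all 3 WT mice, and WT mouse 3 was the high value. The group levels were 316 ± 34.3 and 276 ± 9.20 CPM (SD, n = 3 each), a log2 fold change of -0.19 ± 0.09 (SE), which was -0.10 without WT mouse 3. Extracellular Sod3 (ENSMUSG00000072941.5, chr5:52363791-52371418) was at 13.4, 13.0 and 15.7 CPM in WT and at 16.1, 16.6 and 16.7 CPM in GFAP-IL6. The groups did not overlap, the 3 GFAP-IL6 mice lay close together, and the log2 fold change was 0.25 ± 0.13. Mitochondrial Sod2 (ENSMUSG00000006818.4, chr17:13006846-13040063) overlapped between genotypes, with 130 to 139 CPM in WT and 124 to 147 CPM in GFAP-IL6 and a log2 fold change of -0.02 ± 0.09. The extracellular dismutase and the cytosolic one thus had group means on opposite sides of WT.

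Catalase (ENSMUSG00000027187.8, chr2:103453849-103485160), the peroxisomal enzyme that splits hydrogen peroxide, was at 34.7 to 42.6 CPM in WT and 35.6 to 39.8 CPM in GFAP-IL6, with a log2 fold change of -0.04 ± 0.11. Every GFAP-IL6 value lay inside the WT range.

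Of the glutathione peroxidases, Gpx4 was at 85.8, 90.2 and 81.6 CPM in the WT mice and at 75.0, 86.9 and 76.6 CPM in the GFAP-IL6 mice. GFAP-IL6 mouse 2 lay within the WT range and the other 2 below it. The group levels were 85.9 ± 4.31 and 79.5 ± 6.44 CPM, a log2 fold change of -0.11 ± 0.09. Gpx1 (ENSMUSG00000063856.7, chr9:108338903-108340343), the common cytosolic form, ranged from 230 to 255 CPM in WT and from 241 to 268 CPM in GFAP-IL6, with a log2 fold change of 0.05 ± 0.08. Gpx3 (ENSMUSG00000018339.9, chr11:54902453-54910377), the secreted form found in plasma, was at 8.68, 8.31 and 7.08 CPM in WT and at 9.49, 8.53 and 12.7 CPM in GFAP-IL6. GFAP-IL6 mouse 3 set the upper end and mouse 2 fell inside the WT range, and the log2 fold change of 0.35 ± 0.18 was the widest of the 10 and fell to 0.14 without GFAP-IL6 mouse 3. Gpx8 (ENSMUSG00000021760.3, chr13:113042753-113046410), a form of the endoplasmic reticulum, ranged from 9.52 to 10.9 CPM in WT and from 8.15 to 12.2 CPM in GFAP-IL6.

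Of the peroxiredoxins, Prdx6 (ENSMUSG00000026701.13, chr1:161240112-161251219), which also acts on phospholipid peroxides, was at 617, 641 and 615 CPM in WT and at 669, 682 and 718 CPM in GFAP-IL6. The groups did not overlap, and the log2 fold change was 0.14 ± 0.08. Prdx1 (ENSMUSG00000028691.10, chr4:116685544-116700822), a cytosolic peroxiredoxin, was nearly level at 382 ± 20.8 and 383 ± 22.7 CPM, with a log2 fold change of 0.00 ± 0.08.

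Over the 10 genes, the 3 mice of each genotype did not overlap for 3 (Sod1, Sod3 and Prdx6), and over all genes tested this held for 2100 of 14621 (14.4%). When each of the 4 sets of libraries was fitted alone, Gpx3, Sod3 and Prdx6 had a log2 fold change above 0 in 4 of 4 sets, and Gpx4 and Sod1 in 0 of 4. The range over sets was 0.25 to 0.53 for Gpx3, 0.14 to 0.40 for Sod3, 0.10 to 0.23 for Prdx6, -0.26 to -0.08 for Gpx4 and -0.20 to -0.16 for Sod1. These sets hold the same 6 mice, so their like direction is not a replicate over animals. In a limma-voom fit of all 24 libraries with the mouse as a random block, Sod1 (log2 fold change -0.17) and Prdx6 (0.15) were called, that is 2 of 10 beside 544 of 13249 genes tested (4.11%). As the 10 genes were selected on this contrast, nothing is read from the 2 calls.

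**Figure D1:**
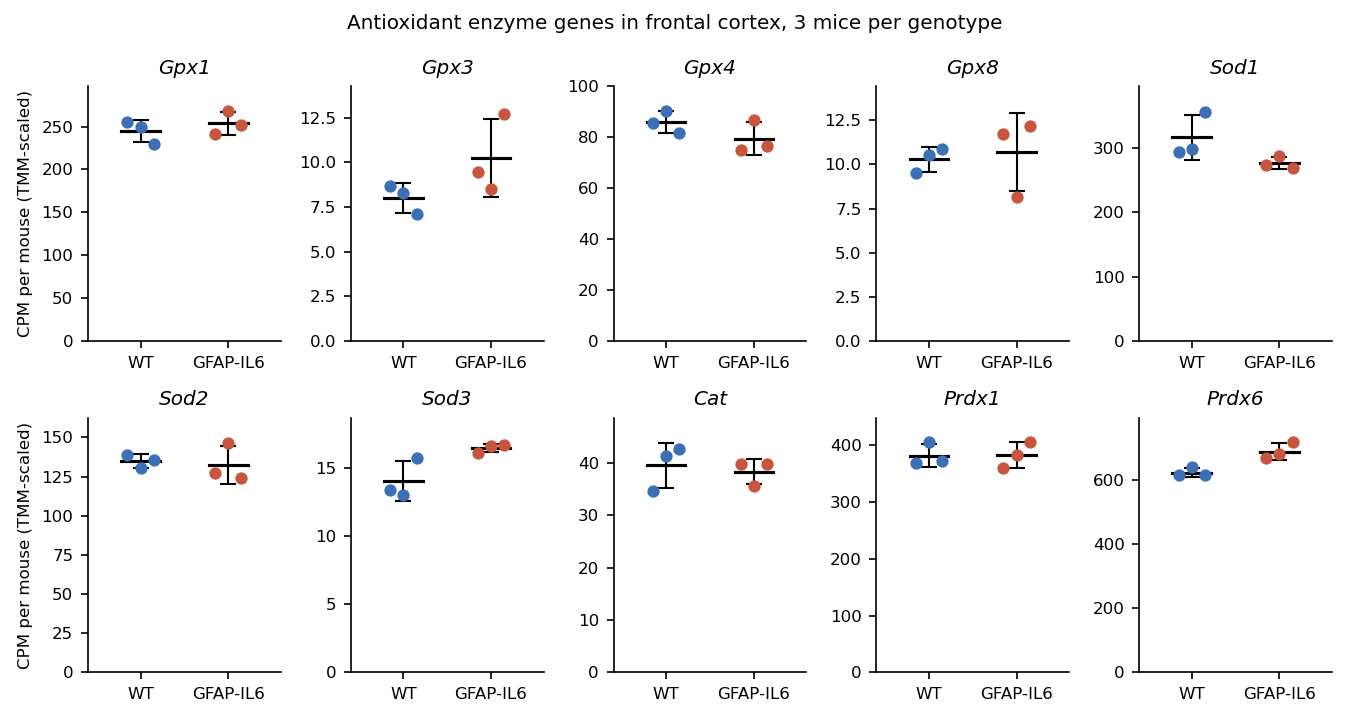
CPM of each of the 10 genes (y axis, from 0) in WT (blue) and GFAP-IL6 (red) mice, 1 point per mouse, with the mean and SD of 3 mice as a black bar and whiskers. Sod1 is lower in all 3 GFAP-IL6 mice and Sod3 and Prdx6 are higher in all 3, and the other 7 genes overlap.

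A further list of 61 genes that remove or produce oxidants, or serve such genes, was examined beside the 10. Of the 61, 59 passed the filter for genotype. Of these, 5 were called, all higher in GFAP-IL6, and 0 lower, against 263 of 14621 genes tested (1.8%). The list was chosen with earlier results of these data known, so its calls and p-values are a description and not an independent test. Of those 5, 4 were subunits of NADPH oxidase, of which 6 were tested. Cyba, which encodes the membrane subunit p22phox, was at 9.52, 13.4 and 11.1 CPM in WT and at 25.9, 23.3 and 26.1 CPM in GFAP-IL6, a log2 fold change of 1.14 ± 0.14 (edgeR adjusted p = 0.000207). Rac2, the small GTPase of the active complex in blood cells, was at 7.33, 7.09 and 5.38 CPM in WT and at 12.01, 17.1 and 20.1 CPM in GFAP-IL6, a log2 fold change of 1.31 ± 0.19 (edgeR adjusted p = 0.000809). The groups were clearly apart for both genes.

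The cytosolic subunit Ncf1 (p47phox) had lower counts. It was at 3.41 to 4.26 CPM in WT and at 4.53 to 9.75 CPM in GFAP-IL6, a log2 fold change of 1.03 ± 0.25 (edgeR adjusted p = 0.0479). Ncf4 (log2 fold change 0.87) and Cybb (0.27), the catalytic subunit, were not called, and Cybb was at under 1 CPM in each mouse. Outside that list, the gene called was Sepp1, which encodes selenoprotein P, the carrier that supplies selenium to other cells, at 232, 275 and 297 CPM in WT and at 321, 381 and 422 CPM in GFAP-IL6, a log2 fold change of 0.49 ± 0.11 (edgeR adjusted p = 0.0335). Without WT mouse 1, WT mouse 2, GFAP-IL6 mouse 2 or GFAP-IL6 mouse 3, Ncf1 and Sepp1 lost their call and Cyba and Rac2 kept theirs, leaving 2 calls. Ncf1 also lost its call without WT mouse 3 (edgeR adjusted p = 0.0909), and so kept it on leaving out only 1 of the 6 mice, GFAP-IL6 mouse 1. It was not called with at least 10 counts in every sample (edgeR adjusted p = 0.0543), and Rac2 was not called in the 2 ng libraries of set B alone (edgeR adjusted p = 0.0697).

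Microglia markers moved with these genes. Of 12 such markers, 11 were called higher in GFAP-IL6, and their summed level was 555 to 600 CPM in WT and 1039 to 1385 CPM in GFAP-IL6, with none of the 12 at 0. In RNA of whole tissue, more cells of a type and more RNA per cell cannot be told apart. The part of microglia or leukocytes in the calls of the NADPH oxidase genes was not tested. Of the astrocyte markers 1 of 9 was called (Gfap), and of the neuron and oligodendrocyte markers 0 of 8 and 0 of 6. The summed astrocyte level, Gfap included, was 3305 to 3381 CPM in WT and 3648 to 3828 CPM in GFAP-IL6, without overlap. Those of neurons and oligodendrocytes overlapped. The part of astrocytes in any difference described here was not tested. Of the vessel markers, 1 of 5 endothelial markers was called (Flt1), with a summed level of 48.3 to 53.6 CPM in WT and 57.6 to 80.5 CPM in GFAP-IL6, and 1 of 4 mural markers (Rgs5), with 64.3 to 96.0 CPM and 103 to 122.9 CPM. Neither list overlapped between genotypes in its summed level, none of these markers was at 0, and their part in the calls was not tested.

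The other lists had no call between genotypes. These were the thioredoxin and peroxiredoxin system (0 of 11 tested, median log2 fold change -0.04), glutathione synthesis and reduction (0 of 10, -0.04), glutathione transferases (0 of 6, 0.02), the NRF2 pathway with NADPH supply (0 of 10, 0.00), and repair, chaperone and ferroptosis genes (0 of 6, -0.08). The selenoprotein list had Sepp1 alone of 10 tested, with a median of -0.05. The list of NADPH oxidase subunits stood at a median of 1.05.

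**Figure D2:**
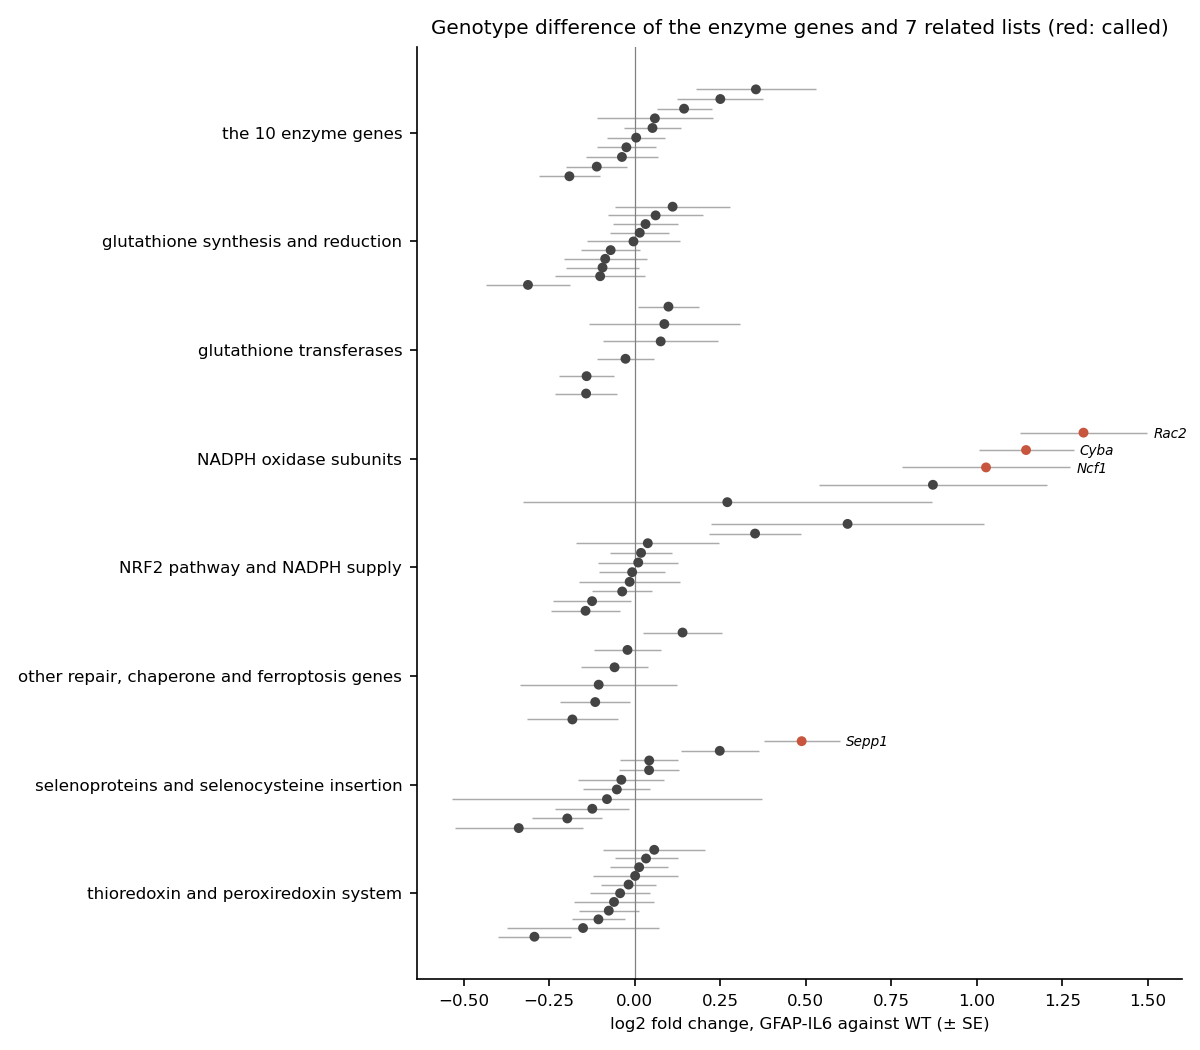
Log2 fold change of GFAP-IL6 against WT with its SE (x axis) for the 10 enzyme genes and the tested genes reported of 7 related lists, 1 point per gene. Red points are genes called, with the NADPH oxidase subunits Ncf1, Cyba and Rac2 above 1 and Sepp1 at 0.49, and the 10 enzyme genes lie between -0.19 and 0.35.

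The second comparison asks what the cDNA amount and the set of libraries do to the same genes in the same 6 mice. At 2 ng against 1 ng, with the mouse as a block, 3 of the 10 genes were called (Gpx1, Gpx4 and Prdx6), against 3455 of 13249 genes tested (26.1%). The share of the 10 is near that of all genes, and without WT mouse 3, GFAP-IL6 mouse 1 or GFAP-IL6 mouse 2 Gpx1 was not called. Gpx4 had the largest difference of the 10, with a log2 fold change of 1.36 ± 0.10 (SE). It was the 25th largest of 13249 in absolute size (the top 0.189%), and 80 genes (0.604%) passed an absolute log2 fold change of 1. The 10 were selected on this contrast, so the rank describes Gpx4 and is not a test. The next of the 10 was Gpx3 at 0.30 ± 0.12, and the other 8 lay between -0.09 and 0.12.

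Gpx4 took 4 separate levels in the 4 sets. With 2 ng in set A it was at 175, 178 and 164 CPM in the WT mice and at 146, 170 and 154 CPM in the GFAP-IL6 mice. With 2 ng in set B it was at 92.8, 99.8 and 94.6 CPM in WT and at 90.8, 96.3 and 85.1 CPM in GFAP-IL6. With 1 ng in set B it was at 57.6, 61.8 and 56.9 CPM in WT and at 52.2, 60.0 and 49.9 CPM in GFAP-IL6.
With 1 ng in set A it was at 42.2, 47.4 and 42.2 CPM in WT and at 31.4, 40.9 and 36.2 CPM in GFAP-IL6. No library of one set overlapped with those of the next, so that the ranges were 146 to 178, 85.1 to 99.8, 49.9 to 61.8 and 31.4 to 47.4 CPM. In every set the mean of the WT mice was above that of the GFAP-IL6 mice, 172 against 157, 95.7 against 90.7, 58.8 against 54.0 and 43.9 against 36.2 CPM. The deepest counts behind these values were 1293 reads and the lowest 75.

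Paired by mouse, the log2 difference of Gpx4 between 2 ng and 1 ng (of CPM plus a pseudocount of 1) was 2.02 ± 0.10 in set A (SD, n = 6 mice), a ratio of 4.14 with a range of 3.75 to 4.65. In set B it was 0.72 ± 0.05, a ratio of 1.66 with a range of 1.605 to 1.74. Both differences were above 0 in 6 of 6 mice, and the 2 ranges were far apart. Set A was above set B by 0.81 ± 0.08 at 2 ng and fell by 0.49 ± 0.12 below it at 1 ng, each in 6 of 6 mice. The set difference of Gpx4 averaged over both amounts (log2 fold change 0.26 ± 0.10) therefore joins opposite directions, and its call was lost without any 1 of WT mouse 1, WT mouse 2, WT mouse 3 or GFAP-IL6 mouse 3.

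**Figure D3:**
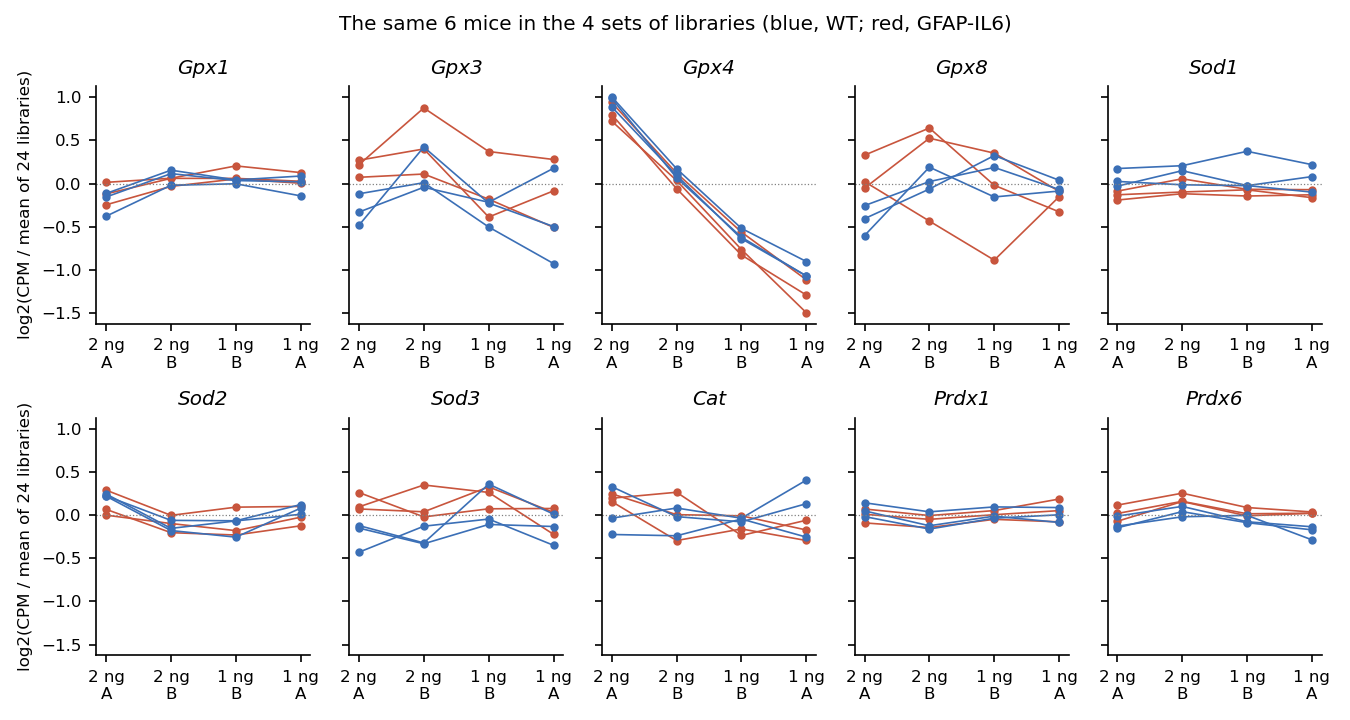
Log2 of CPM over the gene's mean of 24 libraries (y axis) in the 4 sets of libraries (x axis), 1 line per mouse, WT in blue and GFAP-IL6 in red. Gpx4 falls stepwise in all 6 mice from 2 ng A to 1 ng A, while the lines of the other genes stay flatter and those of Gpx3 and Gpx8 cross.

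The same gene was steady between mice and unsteady between libraries of a mouse. The coefficient of variation of Gpx4 over the 4 libraries of a mouse had a median of 62.5% (range 60.4% to 64.8%), while over the mice of one genotype within a set it had a median of 6.52%. For the other 9 genes the median within a mouse ran from 3.99% for Sod1 to 23.2% for Gpx3. Gpx3 and Gpx8 had as few as 10 and 12 counts in a library, and counting error alone gives a coefficient of variation of 16.8% and 15.9% at their median counts. At the median count of Gpx4, 359, counting error alone gives 5.28%.

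Of the other glutathione peroxidases, Gpx1 was lower at 2 ng than at 1 ng in set A by a mean log2 difference of -0.19 ± 0.05, in 6 of 6 mice, and stood at -0.01 ± 0.10 in set B, where 3 mice were above 0 and 3 below. Gpx3 was higher at 2 ng in 6 of 6 mice in set B (0.44 ± 0.20) and in 4 of 6 in set A (0.17 ± 0.42). Gpx8 had no steady direction, at -0.04 ± 0.39 in set A and 0.16 ± 0.36 in set B. None of these 3 relatives followed the steps of Gpx4.

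Among the dismutases, Sod2 was higher in set A than in set B in 6 of 6 mice at both amounts, by 0.29 ± 0.11 at 2 ng and 0.14 ± 0.11 at 1 ng. Its levels were 153 ± 11.7 and 125 ± 6.65 CPM (SD, n = 6) at 2 ng in sets A and B. Sod1 differed little, at -0.01 ± 0.05 and 0.02 ± 0.12 between the amounts in sets A and B. Sod3 was lower at 2 ng in 5 of 6 mice in set B and in 3 of 6 in set A. Cat was higher at 2 ng in 5 of 6 mice in set A (0.15 ± 0.32) and in 4 of 6 in set B (0.06 ± 0.24).

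Of the peroxiredoxins, Prdx6 was higher at 2 ng in 4 of 6 mice in set A (0.05 ± 0.09) and in 5 of 6 in set B (0.13 ± 0.07), and it was lower in set A than in set B at 2 ng in 6 of 6 mice (-0.15 ± 0.05). Prdx1 was lower at 2 ng in 6 of 6 mice in set B by a small -0.08 ± 0.03, and stood at 0.00 ± 0.09 in set A. Across the sets, 4 enzyme genes of 10 were called (Gpx4 and Sod2 higher in A, Gpx1 and Prdx6 lower), against 3477 of 13249 (26.2%).

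Whether the 2 ng to 1 ng difference was alike in both sets was taken from the interaction of amount and set. It called 1466 of 13249 genes (11.1%) and 2 of the 10. These were Gpx4, with a difference of log2 fold changes of 1.32 ± 0.08 (SE), the 25th largest of 13249, and Gpx1, with -0.17 ± 0.05. The choice of the genes used the amount and set differences of these libraries, so this rank is a description too. Without WT mouse 1 Gpx1 was not called. The 5 genes with the highest Pearson r to Gpx4 over the 24 libraries, among 8977 genes with a mean of at least 10 CPM, were Olfm2 (0.95), Ppp2r1a (0.94), Arf5 (0.91), Golga7 (0.91) and Kctd17 (0.90). Those libraries share mice and may share tagmentation pools, so r describes the pattern and has no p. Olfm2 stood at 33.9, 16.0, 8.13 and 6.44 CPM in 2 ng A, 2 ng B, 1 ng B and 1 ng A, in the order of Gpx4, whereas Golga7 was at 54.7 CPM in 1 ng B and 57.8 CPM in 1 ng A. In the last 500 nt of each of these 5 genes, 0 of 431 windows of 70 nt were shared with another gene.

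**Figure D4:**
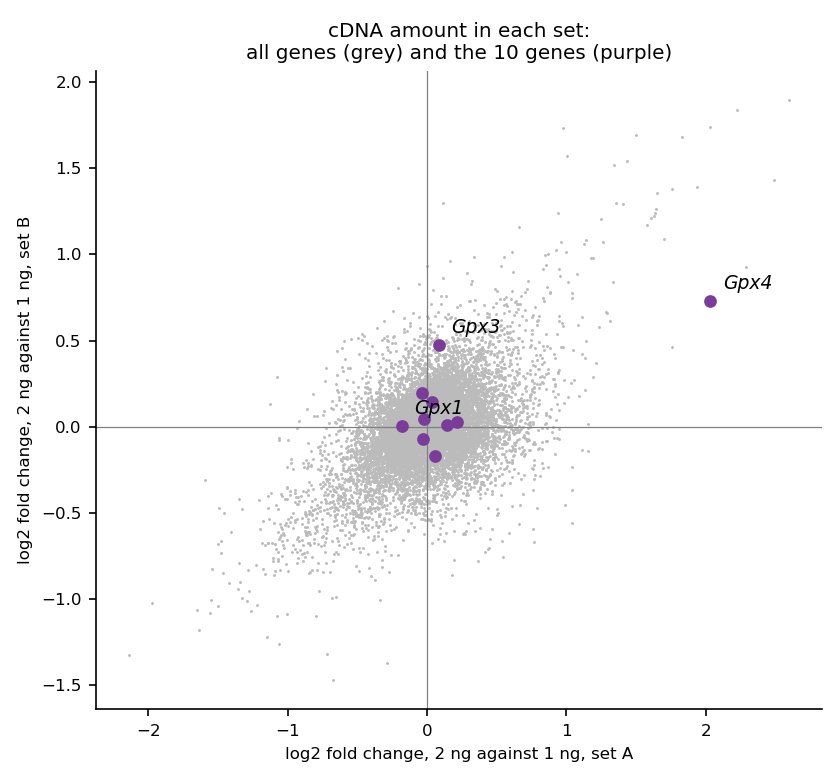
Log2 fold change of 2 ng against 1 ng in set A (x axis) and in set B (y axis) for all genes tested (grey) and the 10 enzyme genes (purple), each from a fit of that set alone. Gpx4 lies far to the right at 2.03 in set A and 0.73 in set B, and the other 9 lie near the centre.

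Whether the genotype difference of the 10 genes varied with amount or set was taken from interaction terms. The choice of the genes used genotype, amount and set differences of these same libraries, so the interactions are a description too. For genotype by amount 0 of 10 were called (adjusted p at least 0.9999), and of all genes 0% (0 of 13249, with 268 at an unadjusted p under 0.05 and 0 called by DESeq2). For genotype by set 0 of 10 were called (edgeR adjusted p at least 0.922), and of all genes again 0%, with 727 at an unadjusted p under 0.05 and 0 called by DESeq2. None of the 10 had an unadjusted p under 0.05 in either. For Gpx4 the difference of genotype log2 fold changes was 0.07 ± 0.20 (SE) between amounts and -0.07 ± 0.20 between sets. These fits hold no term for amount by set. With that term added, an alternative chosen after the data were seen, the values for Gpx4 were 0.07 ± 0.08 and -0.07 ± 0.08, and again 0 of the 10 genes and 0 of all genes were called by edgeR in either interaction. At 1 ng the log2 difference of Gpx4 between sets A and B was -0.44, -0.38 and -0.42 in the WT mice and -0.71, -0.54 and -0.45 in the GFAP-IL6 mice. The genotypes lay apart only narrowly, with -0.440 in WT mouse 1 and -0.453 in GFAP-IL6 mouse 3 the nearest values. The share of all genes with such a separation was not taken, so nothing is read from it. In a fit of the 1 ng libraries alone, also added later, the difference between genotypes was -0.13 ± 0.16 (edgeR adjusted p = 0.999).

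Between amounts, the related list was called at a share close to that of all genes. Of 56 genes tested, 14 were called between 2 ng and 1 ng, 9 higher and 5 lower, beside 3455 of 13249 of all genes (26.1%). The 3 with the largest absolute values, named after these were seen, were Gstp1, a glutathione transferase (log2 fold change 0.93, edgeR adjusted p = 1.45e-24), Glrx, a glutaredoxin (-0.92, edgeR adjusted p = 1.57e-11), and Sepw1, a small selenoprotein (-0.83, edgeR adjusted p = 4.18e-25). Gstp1 shares 300 of 431 windows (69.6%) with Gstp2 and Gstp-ps and is uncertain in the same way as Gpx4, and Glrx and Sepw1 share 0 of 431. Between sets, 22 of 56 were called, 9 higher in A and 13 lower, beside 3477 of 13249 of all genes (26.2%). For the interaction of amount and set 10 of 56 were called, beside 1466 of 13249 (11.1%). Both shares of the list were above those of all genes. The list was chosen with earlier results known, so nothing is read from this. Of the 5 list genes called between genotypes, Cyba alone was called with the amount, lower at 2 ng by a log2 fold change of -0.24 ± 0.09 (edgeR adjusted p = 0.0374).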

How the data were processed

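Libraries of frontal cortex from 3 WT and 3 GFAP-IL6 mice, 4 per mouse, were grouped by their labels. The authors trimmed polyA stretches, aligned reads to mm10 with STAR 2.4, and deposited raw counts of uniquely aligned reads on GENCODE vM6 genes from featureCounts, with no normalization. Counts were tested as deposited with edgeR 4.0.16 in R 4.3.3 (TMM, filterByExpr, quasi-likelihood test), with adjustment over all genes tested. Genotypes were compared on the 4 libraries of each mouse summed, with no block. Amount, set and interactions were fitted on 24 libraries with the mouse as a block, since the same animal is in every set. The study's methods name DESeq2, here DESeq2 1.42.0 as an alternative. Other alternatives were its size factors, no filter on low counts or at least 10 counts in every sample, leaving out each mouse, a block of mouse numbers, single sets, and limma-voom (limma 3.58.1). Tests were checked on simulated data with independent libraries and large fold changes. That check does not cover small differences or libraries that share a reaction. Paired differences used log2(CPM + 1). Positions and 3' ends came from GENCODE vM21 on the same build, with copies found by minimap2 2.31-r1302 and by exact matches of 70 nt windows. Python 3.11.15 was used for summaries and figures.

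The 10 genes, the related list and the marker lists were chosen with earlier results of these data known. Named genes were the 10, list genes called between genotypes, the 5 genes most correlated with Gpx4, and Gfap and Il6. Genotype labels give the same mouse numbers to both groups, but mice with the same number did not deviate together (r of -0.05, -0.03 and -0.03), so they were not paired. Reads carry no molecular identifiers. A gene of the list is counted but not otherwise reported here.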

Additional observations from a re-analysis of the deposited data

Results flagged for a closer look

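The 2 ng to 1 ng differences of Gpx4 and Gpx1 were not alike in sets A and B, by the interaction of amount and set in edgeR. That interaction called 1466 of 13249 genes tested (11.1%). The 6 mice of a set may have shared 1 tagmentation reaction, so cDNA amount and differences between reactions cannot be told apart. The log2 fold change of 2 ng against 1 ng was greater in set A by 1.32 for Gpx4 and differed by -0.17 for Gpx1. For Prdx6, WT mouse 3 lay apart from the other 5 mice in 2 of 40 groups of 6 paired differences examined. Its log2 difference between 2 ng and 1 ng in set B was -0.0166 where the median of the 6 mice was 0.15. Its difference between sets A and B at 1 ng was -0.28 where the median was -0.05. Both differences hold the same library, that of WT mouse 3 with 1 ng in set B, so they are not 2 separate observations. Chance sets apart about 1 in 20 such groups. WT mouse 3 had the lowest counts of the 6 mice, and the part of depth was not tested.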

How the results depend on the processing

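Between genotypes the number of the 10 genes called was 0 in every alternative except limma-voom on 24 libraries (2). The 263 genes called in all became 462 with no filter on low counts, 544 with limma-voom, 125, 132, 136 and 140 in the 4 sets alone, and 146 to 321 on leaving out 1 mouse, with 146 without GFAP-IL6 mouse 3. The 5 related genes called became 3 in each set alone, 3 with the mouse number as a replicate block (Ncf1 among those lost), and 2 to 5 on leaving out 1 mouse. That block called 0 of the 10 genes and changed no other call named here. Between amounts, the fit with no replicate block called 1 of the 10 in place of 3 and 8 of the related list in place of 14, and leaving out 1 mouse gave 2 to 4 and 9 to 13 (9 without WT mouse 1). The log2 fold change of Gpx4 was 1.36, and 2.03 in set A and 0.73 in set B alone, while that of Gpx1 turned from -0.09 to 0.00 (0.002049) in set B alone. Between sets, the fit with no replicate block called 2 of the 10 in place of 4, 11 of the list in place of 22 and 2135 genes in place of 3477. The 1 ng libraries alone called 1, 5 and 695, and there Gpx4 reversed to -0.49. On all 24 libraries DESeq2 gave Gpx4 a set difference of 0.16 without a call, where edgeR gave 0.26. For amount by set, no replicate block gave 1 of the 10 in place of 2 and 345 genes in place of 1466, and leaving out 1 mouse gave 1 to 3 of the 10. The amount by set term, added to the other fits of 24 libraries after the data were seen, ended no call of the 10 genes and added Prdx1 between sets. The cause of these changes was not tested. The low counts of Gpx3, Gpx8 and Sod3 limit what their differences can show.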
